A study of Mus musculus with 6 samples.

Results

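The 8 genes Sod1, Tardbp, Vcp, Optn, Tbk1, Nek1, Matr3 and Ubqln2, whose human counterparts carry mutations in amyotrophic lateral sclerosis (ALS), the degenerative disease of motor neurons, were followed in NSC-34 cells after knockdown of Qk. The genes are a list of names taken from human ALS genetics, and the rule that selects them uses no measured value, although the list was drawn up with earlier results of these data known. All 8 were found by symbol among the 23038 genes listed, and all 8 passed the filter on low counts into the 12665 genes tested. NSC-34 is a mouse hybrid of neuroblastoma cells and motor neurons of the spinal cord, so the genes were read as their mouse forms in a dividing line and not in motor neurons of a patient or an animal. The line received either control siRNA (siNC, 3 libraries) or siRNA against Qk (siQk, 3 libraries), and both groups therefore shared the cell line and an siRNA transfection. The labels call the 3 libraries of a group biological replicates. They name 3 different siRNAs for Qk without saying which siQk library received which, so the spread among siQk libraries cannot be told apart from a spread among siRNAs. The comparison asks how mRNA levels differ when the Quaking proteins, RNA-binding proteins of the STAR family, are depleted.

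The products of the 8 genes meet in a few processes on which motor neurons are known to depend. Tardbp encodes TDP-43, a nuclear RNA-binding protein that is found in cytoplasmic inclusions in most ALS, and Matr3 encodes matrin 3, an RNA- and DNA-binding protein of the nuclear matrix. Vcp, Ubqln2, Optn and Tbk1 act in the clearance of ubiquitin-marked proteins through the proteasome and autophagy. Sod1 encodes the cytosolic copper-zinc superoxide dismutase, and Nek1 a protein kinase with roles in the response to DNA damage and in primary cilia.

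Quaking proteins bind RNA at elements whose core is ACUAAY, so the transcripts of the members were searched for ACTAAC and ACTAAT to show which of them hold those letters. The search covered the longest coding transcript of each gene in GENCODE release M21 of the mouse (GRCm38), on the transcript strand alone because the element is read in RNA. No position can match both motifs. The elements found in Tardbp, Vcp, Optn and Tbk1 are shown 5′ to 3′ as DNA, with the motif in capitals and 10 bases of the transcript on each side. The positions are of the printed bases on GRCm38, and all 5 lie on the minus strand.
Tardbp, 3′ UTR, chr4:148614358-148614383: atctagaaacACTAATgcccccccac
Tardbp, 3′ UTR, chr4:148613217-148613242: aggctagaaaACTAATttaaaccagc
Vcp, coding exon, chr4:42982641-42982666: ggctaagatgACTAATggcttttctg
Optn, coding exon, chr2:5033131-5033156: caattgaagaACTAACcaagcaacag
Tbk1, coding exon, chr10:121552244-121552269: gttatcgctaACTAATcagtgtttcg

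Of the 8 genes, Tardbp held 2 of these elements in 7477 bases, Tbk1 2 in 3024 bases, Vcp 1 in 3316 bases and Optn 1 in 2614 bases. The other element of Tbk1 was an ACTAAC whose 26-base window crossed an exon junction. Matr3 held 1 ACTAAT in 6262 bases. Sod1, Nek1 and Ubqln2 held 0 in 641, 5478 and 3344 bases. Across 21901 protein-coding genes, 43.3% held at least 1. Among transcripts within 10% of the same length the share was 78.4% for Tardbp, 72.2% for Matr3, 69.8% for Nek1, 49.2% for Ubqln2, 49.0% for Vcp, 45.2% for Tbk1, 39.7% for Optn and 10.3% for Sod1. The 2 elements of Tbk1 were matched or exceeded in 16.3% of transcripts of its length. A match of these letters is a description of the sequence and not a site of binding, and introns, where a splicing factor also binds, were not searched.

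Library totals ran from 43000503 to 53565950 counts, and each library had a count for 16057 to 16516 genes. Counting error was therefore small for the members, whose counts per library ran from 1847 (Optn) to 26507 (Sod1), and precision was set by the spread between libraries. Expected counts were scaled by TMM and compared by the quasi-likelihood F test of edgeR. A call of change needed a p under 0.01 together with an adjusted p under 0.1 (Benjamini-Hochberg, over the 12665 genes tested). In a principal component analysis of all genes tested, siQk replicate 2 stood apart on the first component (41.2% of the variance, score 47.5 against -23.4 to 9.59 in the others) and siNC replicate 3 on the second (28.9%, score 42.6 against -17.3 to -3.86). Values without either library are given with the members below.

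Qk, the target of the siRNA, had 9.68, 8.18 and 14.9 RPKM in siNC replicates 1 to 3 and 1.39, 1.71 and 1.11 RPKM in siQk replicates 1 to 3. The groups did not overlap. Qk fell by 3.00 on the log2 scale (SE 0.34, adjusted p = 0.0149, edgeR), and without siNC replicate 1 by 3.09 with an adjusted p of 0.125, past the threshold of 0.1. Qk was the 1 gene called among all those tested (0.00790%), where the edgeR exact test called 5 genes and DESeq2 19.

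The identity of the cells was read from marker genes. Of 7 motor neuron markers, 4 (Chat, Slc5a7, Mnx1 and Lhx3, among them the enzyme that makes acetylcholine) were below 1 RPKM in all 6 libraries, and the summed level of the list was 10.0 to 11.5 RPKM in siNC and 14.2 to 16.4 RPKM in siQk. Isl1, a transcription factor of motor neurons, had 4.83, 4.75 and 4.795 RPKM in siNC and 9.63, 7.80 and 8.33 RPKM in siQk without overlap, and did not pass the edgeR test (log2 fold change 0.82, adjusted p = 0.9996). The summed level of the neuronal list was 306 to 608 RPKM in siNC and 429 to 601 RPKM in siQk, and that of the neuroblastoma list 263 to 340 RPKM in siNC and 251 to 339 RPKM in siQk. The summed levels of the astrocyte, microglia and fibroblast lists stayed at or below 0.222 RPKM in every library, with Aqp4 at 0. The oligodendrocyte list, of which 4 of 5 genes were below 1 RPKM throughout, summed to 3.27 to 3.73 RPKM in siNC and 1.79 to 2.94 RPKM in siQk. The motor neuron and oligodendrocyte sums moved with the group. Among the motor neuron markers tested, only Isl1 separated the groups in RPKM. Slc18a3 (means 2.02 RPKM in siNC, 1.925 RPKM in siQk) and Isl2 (3.43 and 4.03 RPKM) overlapped between them. The part of these sums in the results below was not tested. In bulk RNA, fewer cells of a type and less RNA per cell cannot be told apart.

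All 8 ALS genes were expressed in every library, at levels that spanned from 7.86 RPKM for Nek1 to 826 RPKM for Sod1. By the mean of all 6 libraries in RPKM, which is scaled by exon length, the order was Sod1 (732), Ubqln2 (85.3), Matr3 (77.9), Tbk1 (69.8), Vcp (53.2), Tardbp (41.9), Optn (17.6) and Nek1 (10.3). Sod1 ranked 32 of 12665 genes by mean RPKM and Nek1 6439. Optn ranked 4546, and the 5 others between 930 and 2068. Sod1 was 6.60 to 11.7 times as high as Ubqln2 within each library. Tbk1 was above Vcp, Vcp above Tardbp and Tardbp above Optn in 6 of 6 libraries. The ranges over the 6 libraries overlapped between Ubqln2 and Matr3, where the order held in 3 of 6 libraries, and between Matr3 and Tbk1, where it held in 5 of 6. The ranges of Optn and Nek1 also overlapped, with Optn 1.13 to 2.39 times as high within each of the 6 libraries.

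**Figure D1:**
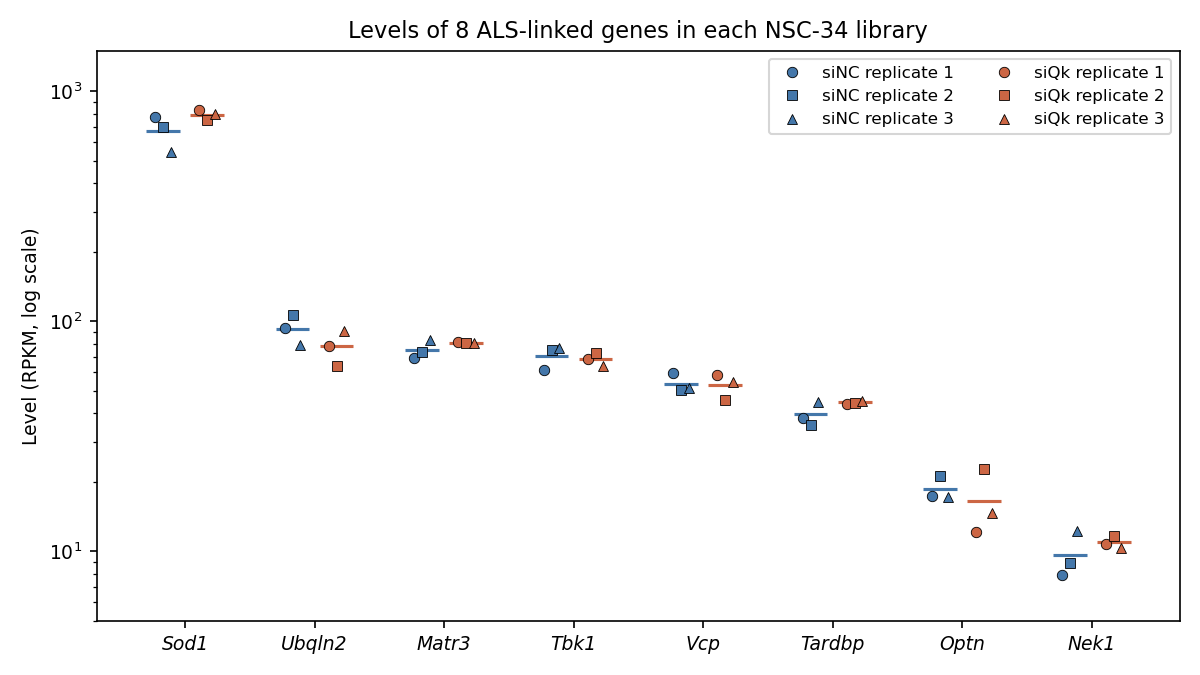
Level of each ALS gene in each library (RPKM, log scale), genes ordered by their mean; points are libraries, horizontal bars the mean of 3 libraries, blue siNC and orange siQk. The points of the groups interleave for every gene, and the step from Sod1 (mean 732 RPKM) to the next gene (85.3 RPKM) is larger than any between the groups.

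None of the 8 ALS genes was called changed. The count was 0 of 8 by the quasi-likelihood test of edgeR, 0 at an unadjusted p under 0.05, and 0 called by the edgeR exact test, DESeq2 and limma-trend. Over all genes tested, 2.89% had an unadjusted p under 0.05, 1.69% lower and 1.20% higher in siQk. The groups overlapped in RPKM for all 8 genes, against 8.84% of all genes tested whose groups did not overlap. With 8 genes, counts of 0 are near these backgrounds. The log2 fold changes, siQk over siNC, ran from -0.28 (Ubqln2) to 0.21 (Sod1), 4 below 0 and 4 above, with a median of 0.01 beside 0.00 over all genes tested. The adjusted p was 0.9996 for each (edgeR). With 3 libraries against 3, the exact permutation test on RPKM, two-sided over 20 arrangements, could not go below 0.1. Counts per gene do not show which exons a transcript holds, and exon usage was not tested here. The paper reports many changes of exon usage after Qk knockdown in NSC-34 cells. It also reports a NEK1 exon that a Quaking protein inhibits in a human cell line.

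**Figure D2:**
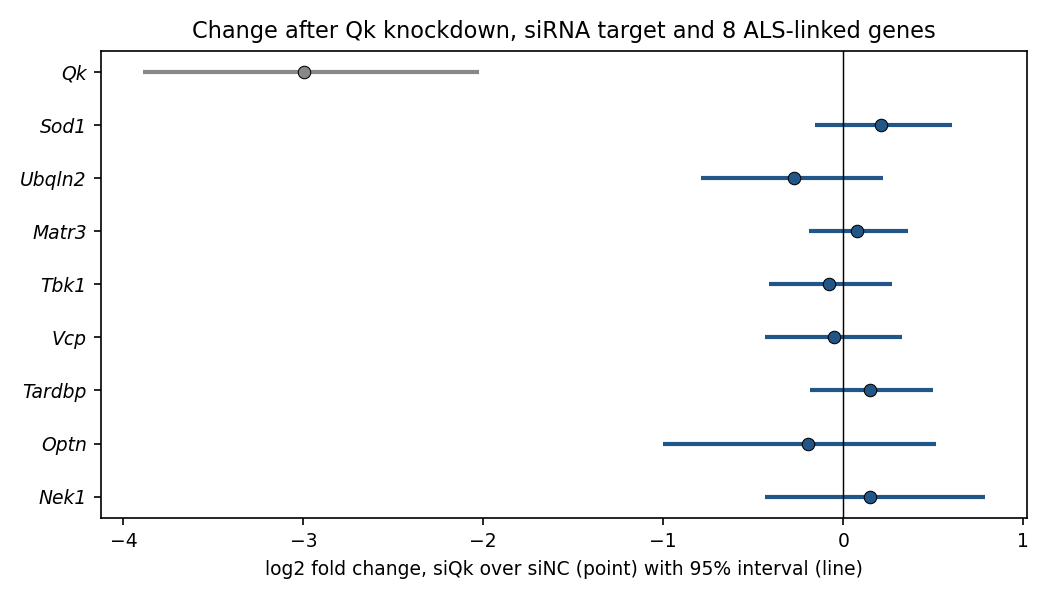
log2 fold change of Qk (grey) and of the 8 ALS genes (blue), siQk over siNC; points are edgeR estimates and lines 95% intervals from the spread of log2 CPM between libraries. The interval of Qk lies below 0, and that of every ALS gene includes 0.

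The RNA-binding members were considered first. Tardbp (Entrez 230908, GRCm38 chr4:148612382-148627019, minus strand) had 38.2, 35.5 and 44.4 RPKM in siNC replicates 1 to 3 and 43.9, 44.2 and 45.2 RPKM in siQk replicates 1 to 3. The siQk libraries lay close together, siNC replicates 1 and 2 lay below them, and siNC replicate 3 lay among them. The means were 39.4 ± 4.55 RPKM in siNC against 44.5 ± 0.691 RPKM in siQk (SD, n = 3), and the log2 fold change was 0.15 (SE 0.12, 95% interval -0.19 to 0.50, edgeR p = 0.365, exact permutation p = 0.3). Without siNC replicate 3 it was 0.27 (adjusted p = 0.895, edgeR), without siQk replicate 2 it was 0.15 and without siNC replicate 2 it was 0.05. The interval of the difference covers 87.95% to 141% of the siNC level.

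Matr3 (Entrez 17184, GRCm38 chromosome 18, plus strand) had 69.0, 73.6 and 82.7 RPKM in siNC replicates 1 to 3 and 81.1, 80.5 and 80.5 RPKM in siQk. As for Tardbp, siNC replicates 1 and 2 were the lowest libraries, here with siNC replicate 3 above all 3 siQk libraries. The siQk libraries differed little (80.7 ± 0.322 RPKM, SD, n = 3) beside the siNC libraries (75.1 ± 6.97 RPKM, SD, n = 3). Matr3 had a log2 fold change of 0.08 (SE 0.10, 95% interval -0.19 to 0.36, edgeR p = 0.612, exact permutation p = 0.4). It was 0.18 without siNC replicate 3, 0.08 without siQk replicate 2, 0.01 without siNC replicate 1 and 0.04 without siNC replicate 2. Over all 6 libraries Matr3 was the steadiest of the 8 genes, with an SD of 0.118 log2 CPM, where 6.80% of genes tested varied less.

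Among the genes of protein clearance, Vcp encodes the AAA ATPase p97, which pulls ubiquitin-marked proteins out of membranes and complexes. Vcp (Entrez 269523, GRCm38 chr4:42979963-43000507, minus strand) had 59.4, 50.3 and 51.2 RPKM in siNC and 58.4, 45.4 and 54.3 RPKM in siQk. The lowest library was siQk replicate 2 and the others interleaved. Vcp had a log2 fold change of -0.05 (SE 0.14, 95% interval -0.44 to 0.33, edgeR p = 0.765, exact permutation p = 0.9), and its sign turned without siQk replicate 2 (0.05) and without siNC replicate 1 (0.02). It was -0.06 without siNC replicate 3 and -0.13 without siQk replicate 1.

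Ubqln2 encodes ubiquilin 2, a shuttle that brings ubiquitin-marked proteins to the proteasome, and is an intronless gene of the X chromosome (Entrez 54609, GRCm38 chrX:153498227-153501570, plus strand). It had 93.6, 106 and 78.6 RPKM in siNC replicates 1 to 3 and 78.3, 64.1 and 90.9 RPKM in siQk replicates 1 to 3. The lowest library was siQk replicate 2 and the highest siNC replicate 2, while siNC replicate 3 and siQk replicate 1 were alike and siQk replicate 3 lay above both. The means were 92.9 ± 13.9 RPKM in siNC against 77.8 ± 13.4 RPKM in siQk (SD, n = 3). The log2 fold change of -0.28 (SE 0.18) was the lowest of the 8, with a 95% interval of -0.79 to 0.22, or 57.9% to 117% of the siNC level (edgeR p = 0.149, exact permutation p = 0.2). Without siQk replicate 2 it was -0.15, and without siNC replicate 3 it was -0.36.

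Tbk1 encodes a kinase that phosphorylates autophagy receptors, optineurin among them. Tbk1 (Entrez 56480, GRCm38 chr10:121546455-121586787, minus strand) had 61.3, 75.3 and 76.5 RPKM in siNC and 68.5, 73.1 and 64.0 RPKM in siQk. The 3 siQk libraries lay between the lowest siNC library and the other 2. Its log2 fold change was -0.08 (SE 0.12, 95% interval -0.42 to 0.27, edgeR p = 0.625, exact permutation p = 0.7). It was 0.01 without siNC replicate 3, -0.13 without siQk replicate 2 and -0.18 without siNC replicate 1.

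Optn encodes optineurin, an autophagy receptor that binds ubiquitin. Optn (Entrez 71648, GRCm38 chr2:5020642-5064051, minus strand) had 17.5, 21.2 and 17.2 RPKM in siNC replicates 1 to 3 and 12.2, 22.7 and 14.7 RPKM in siQk replicates 1 to 3. The siQk libraries lay on both sides of the siNC libraries, replicates 1 and 3 below all 3 of them and replicate 2 above all 3. The means were 18.6 ± 2.24 RPKM in siNC against 16.5 ± 5.51 RPKM in siQk (SD, n = 3), and the log2 fold change was -0.20 (SE 0.27, edgeR p = 0.416, exact permutation p = 0.6). Its 95% interval, -0.999 to 0.518, was the widest of the 8 and covers 50.04% to 143% of the siNC level. Without siQk replicate 2 the log2 fold change was -0.49, which passed an unadjusted p of 0.05 in edgeR but no adjustment over all genes, and without siQk replicate 1 it was -0.02. Without siNC replicate 3 it was -0.23.

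Sod1 encodes the enzyme that converts superoxide to hydrogen peroxide in the cytosol. Sod1 (Entrez 20655, GRCm38 chr16:90220754-90226329, plus strand) had 774, 702 and 544 RPKM in siNC replicates 1 to 3 and 826, 751 and 797 RPKM in siQk replicates 1 to 3. siNC replicate 3 was the lowest library, and siNC replicate 1 lay within the range of siQk. The means were 673 ± 117 RPKM in siNC against 791 ± 37.8 RPKM in siQk (SD, n = 3). The log2 fold change of 0.21 (SE 0.14) was the highest of the 8, with a 95% interval of -0.16 to 0.60, or 89.6% to 152% of the siNC level (edgeR p = 0.206, exact permutation p = 0.2). Without siNC replicate 3 it was 0.10, without siQk replicate 2 it was 0.25 and without siNC replicate 1 it was 0.32.

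Nek1 (Entrez 18004, GRCm38 chr8:60993195-61131346, plus strand), the kinase of DNA damage and cilia, had 7.86, 8.88 and 12.3 RPKM in siNC replicates 1 to 3 and 10.8, 11.7 and 10.4 RPKM in siQk replicates 1 to 3. siNC replicates 1 and 2 lay below the siQk libraries and siNC replicate 3 above them, the order also seen in Matr3. Nek1 had a log2 fold change of 0.15 (SE 0.22, 95% interval -0.43 to 0.79, edgeR p = 0.491, exact permutation p = 0.5). Without siNC replicate 3 it was 0.39, past an unadjusted p of 0.05 but with an adjusted p of 0.895 (edgeR), and without siNC replicate 1 it was 0.01. It was 0.10 without siQk replicate 2 and 0.06 without siNC replicate 2.

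In deviations from each gene's mean over the 6 libraries, on the log2 CPM scale, siNC replicate 3 was the highest library for Nek1 (0.33), Tbk1 (0.20), Tardbp (0.15) and Matr3 (0.15) and the lowest for Sod1 (-0.35). siQk replicate 2 was the lowest library for Ubqln2 (-0.42) and Vcp (-0.25) and the highest for Optn (0.38). These are the libraries that stood apart in the principal components, and their part in the results was not tested. The median SD over the 6 libraries was 0.176 log2 CPM for the 8 genes and 0.263 for all genes tested. The genes were not matched for level, so the difference is not read as a trait of the 8.

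**Figure D3:**
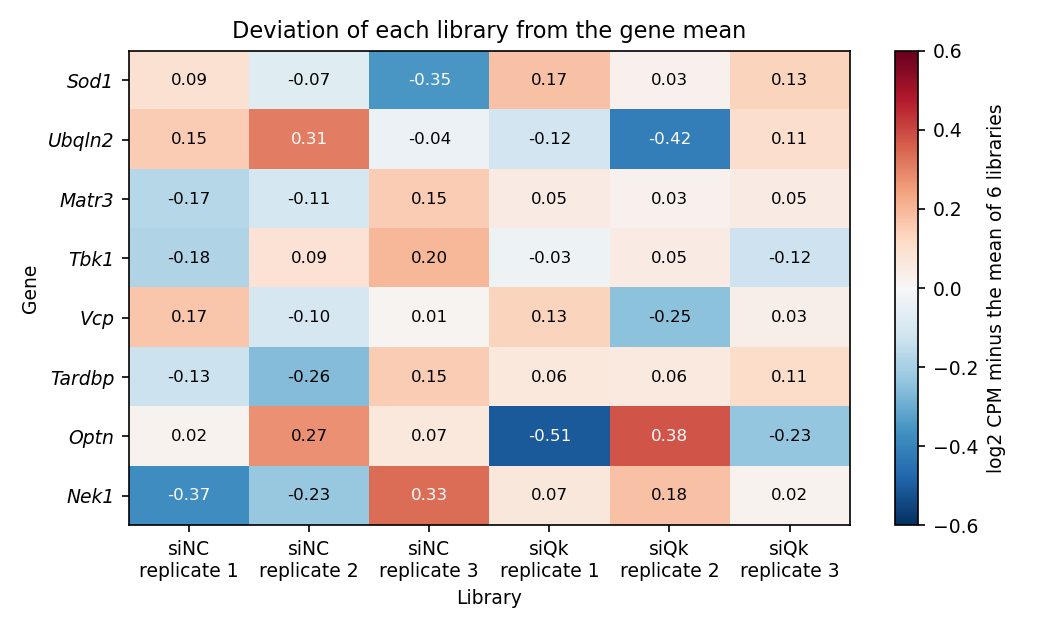
Deviation of each library from the mean of 6 libraries for each ALS gene (log2 CPM), red above and blue below. siNC replicate 3 holds the highest value in 4 rows and the lowest in the Sod1 row (-0.35), and siQk replicate 2 holds the lowest values of Ubqln2 (-0.42) and Vcp (-0.25).

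The libraries keep no strand, and some members share sequence with other genes. Exons of Tardbp overlap 1817 bases of exon of Masp2, a complement protease gene on the other strand, and 18.7% of the 75-base stretches of Tardbp occur in another annotated gene. Masp2 itself was listed at 7.75 to 8.97 RPKM and overlapped between the groups. Vcp shared 39.9% of its 75-base stretches with other genes, the copy Vcp-rs among them, so reads of Vcp could be split or lost in counting. 1700022I11Rik, which overlaps 352 bases of Vcp exon on the other strand, had at most 7 counts in a library. Matr3 shared 15.5% of its 75-base stretches, and 1754 bases of its exons overlap a gene model on its own strand. The levels of Tardbp, Vcp and Matr3 are uncertain to that extent. The share was at most 1.71% for Sod1, Tbk1 and Nek1 and 0% for Optn and Ubqln2.

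Other genes linked to ALS were read in the same fit. Of 35, 31 were tested and 0 were called, with 15 lower, 16 higher and a median log2 fold change of 0.01. By role, the median was 0.08 for 9 RNA-binding genes, 0.01 for 12 genes of autophagy and ubiquitin, -0.13 for 5 genes of the cytoskeleton and transport and 0.12 for 5 genes of other roles. Hnrnpa2b1, an abundant RNA-binding protein of the hnRNP family, had means of 228 RPKM in siNC against 246 RPKM in siQk. The RNA-binding genes with the smallest p were Tia1, a stress granule protein, at a log2 fold change of -0.40 (SE 0.42, edgeR p = 0.207, exact permutation p = 0.5) that was -0.11 without siQk replicate 2, and Gle1, an mRNA export factor, at 0.14 (SE 0.19), the latter turning to -0.07 without siQk replicate 2. Among tested genes of the remaining roles with high levels, the actin-binding profilin gene Pfn1 had 296 RPKM in siNC against 314 RPKM in siQk, the chaperone gene Dnajc7 had 129 and 119 RPKM, and the synaptic vesicle priming gene Unc13a had 27.8 and 30.6 RPKM.

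Of these 31 genes, 1 (Sqstm1) had an unadjusted p under 0.05, a share near the 2.89% of all genes tested. It encodes p62, an autophagy receptor that binds ubiquitin as optineurin does and that Tbk1 phosphorylates. Sqstm1 had 402, 289 and 267 RPKM in siNC replicates 1 to 3 and 270, 193 and 218 RPKM in siQk replicates 1 to 3. In RPKM the groups overlapped only in that siQk replicate 1 lay just above siNC replicate 3. In TMM-scaled log2 CPM, as deviations from the gene's mean, siQk replicate 1 (0.011) lay just below siNC replicate 3 (0.072). The log2 fold change was -0.52 (SE 0.23, edgeR p = 0.0254, exact permutation p = 0.2, adjusted p = 0.9996), and -0.32 without siNC replicate 1, the library with the highest level.

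Kif5a, a kinesin of axonal transport, was the 1 of these 31 genes whose groups did not overlap in RPKM, a smaller share than the 8.84% of all genes tested. It had 36.6, 27.4 and 27.4 RPKM in siNC and 26.1, 20.9 and 24.99 RPKM in siQk, a log2 fold change of -0.37 (SE 0.17, edgeR p = 0.0621, exact permutation p = 0.1, adjusted p = 0.9996), and -0.22 without siNC replicate 1. Prph, the intermediate filament protein peripherin, had 949, 586 and 559 RPKM in siNC and 681, 421 and 579.7 RPKM in siQk. Its groups overlapped and its log2 fold change was -0.34 (SE 0.32), or -0.06 without siNC replicate 1, its highest library. Chchd10, a mitochondrial protein, was at -0.46 (SE 0.28, edgeR p = 0.0709, exact permutation p = 0.2), and at -0.18 without siNC replicate 1. Vapb, a tether of the endoplasmic reticulum, was at -0.29 (SE 0.13, edgeR p = 0.106, exact permutation p = 0.2), or -0.19 without siNC replicate 3. 1810043G02Rik, the older symbol of Cfap410, was at 0.30 (SE 0.34) and turned to -0.05 without siQk replicate 2.

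The partners of the members were read by role. All 25 cofactors of Vcp were tested, with 0 called, 11 lower and 14 higher and a median log2 fold change of 0.00. The cofactor with the smallest p was Ubxn2a, a UBX-domain adaptor, with 5.47, 8.88 and 8.35 RPKM in siNC and 4.796, 5.72 and 5.62 RPKM in siQk. The groups overlapped through siNC replicate 1, and the log2 fold change was -0.52 (SE 0.24, edgeR p = 0.0415, exact permutation p = 0.3, adjusted p = 0.9996). Nsfl1c, the cofactor p47, had 73.0 RPKM in siNC against 78.1 RPKM in siQk.

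Of 17 partners of Tbk1 and Optn, 16 were tested and 0 called, with 10 lower, 6 higher and a median of -0.03. Besides Sqstm1, the smallest p was that of Map1lc3b, a member of the LC3 family that receptors such as optineurin bind. Map1lc3b had 66.7, 68.6 and 54.6 RPKM in siNC and 51.8, 51.9 and 53.1 RPKM in siQk. The groups did not overlap, though siNC replicate 3 lay close to the siQk libraries, and the log2 fold change was -0.30 (SE 0.08, edgeR p = 0.0744, exact permutation p = 0.1, adjusted p = 0.9996). Gabarap, of the same family of autophagosome proteins, had 98.5 RPKM in siNC against 101 RPKM in siQk.

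Of 9 other ubiquilins and proteasome shuttles, 7 were tested and 0 called, with 3 lower, 4 higher and a median of 0.04. Ddi2, a shuttle with a protease domain, had 32.8, 37.0 and 40.1 RPKM in siNC and 20.9, 27.5 and 34.2 RPKM in siQk. The groups overlapped through siQk replicate 3, and the log2 fold change was -0.44 (SE 0.23, edgeR p = 0.0642, exact permutation p = 0.2), or -0.28 without siQk replicate 1. Psmd4, the ubiquitin receptor of the proteasome, was at 0.13 (SE 0.09), or 0.06 without siNC replicate 3, and Rad23b had 82.6 RPKM in siNC against 87.9 RPKM in siQk.

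All 22 genes of superoxide and peroxide defence were tested and 0 called, with 13 lower, 9 higher and a median of -0.02. The groups did not overlap for 2 genes that were lower in siQk (Srxn1 and Txnrd1, the cytosolic thioredoxin reductase, the latter named after its values were seen) and 1 that was higher (Prdx4), beside 8.84% of all genes tested in either direction. Srxn1, the sulfiredoxin that restores oxidised peroxiredoxins, had 12.2, 11.8 and 8.63 RPKM in siNC and 8.14, 5.77 and 7.04 RPKM in siQk. The groups did not overlap, and the log2 fold change was -0.66 (SE 0.20, edgeR p = 0.0110, exact permutation p = 0.1, adjusted p = 0.9996), between -0.79 and -0.54 when each library was left out. Prdx4, the peroxiredoxin of the endoplasmic reticulum, had 62.7, 53.4 and 58.2 RPKM in siNC and 63.4, 100 and 69.9 RPKM in siQk. Its groups did not overlap, with siQk replicate 2 far the highest, and the log2 fold change was 0.39 (SE 0.21, edgeR p = 0.0721, exact permutation p = 0.1), or 0.17 without that library. Txnrd1 had 195, 172 and 153 RPKM in siNC and 151, 140 and 147 RPKM in siQk, a log2 fold change of -0.27 (SE 0.09, adjusted p = 0.9996, edgeR), with siNC replicate 3 close to siQk replicate 1. The abundant enzymes Prdx2 (370 RPKM in siNC, 367 RPKM in siQk) and Gpx4 (284 and 270 RPKM) stood below Sod1 in level.

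Of 10 other NEK kinases, 7 were tested and 0 called, with 4 lower, 3 higher and a median of -0.01. The smallest p values were those of the mitotic kinases Nek7, at a log2 fold change of 0.34 (SE 0.29) that was 0.05 without siQk replicate 2, and Nek9, at -0.20 (SE 0.15) that was -0.05 without siNC replicate 3. Nek2, the most abundant of the family, had 34.4 RPKM in siNC against 37.1 RPKM in siQk, above Nek1.

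**Figure D4:**
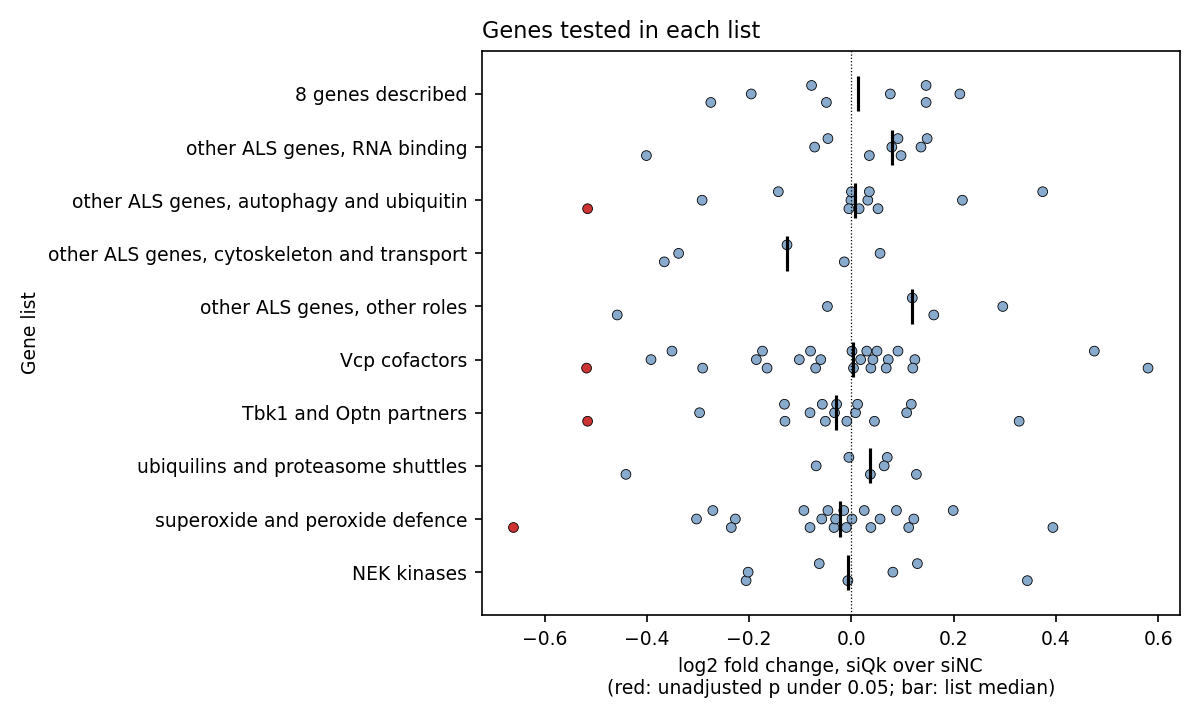
log2 fold change of every tested gene, siQk over siNC, for the 8 ALS genes and 9 lists of related genes; red points have an unadjusted edgeR p under 0.05, black bars are list medians and vertical offsets within a row only separate points. The list medians lie between -0.13 and 0.12, and the red points are Sqstm1 (in both lists that hold it), Ubxn2a and Srxn1, all below 0.

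The genes whose log2 CPM followed each member most closely over the 6 libraries are given as a description by Pearson's r. They were Btg2 and Dopey2 for Sod1 (both 0.995), Hnrnpu (0.993) and Nrd1 (0.988) for Tardbp, Ranbp2 (0.995) and Lrrcc1 (0.993) for Matr3, and Arntl (0.993) and Pde2a (0.991) for Vcp. For Ubqln2 they were Daglb (0.990) and Sh3bp5 (0.979), for Tbk1 Golga1 (0.991) and Slc17a5 (0.990), for Optn Ankrd13a (0.992) and Dedd (0.990), and for Nek1 Fam35a (0.990) and Trim23 (0.987). Between 77 (Optn) and 293 (Sod1) of 12664 other genes had an r above 0.9. The points of each pair share their libraries and depth.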

How the data were processed

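Poly-A RNA of NSC-34 cells was sequenced by the authors in 6 libraries with a TruSeq version 2 kit, which keeps no strand, with OLego for alignment and Quantas for gene counts. The deposited files hold expected counts per gene, of which 21.9% to 22.9% per library were not whole, and RPKM values that the authors scaled by exon length and library total. The labels name mm10, whereas the methods name the genome in 2 ways. The files carry no coordinates, and positions, transcripts and overlaps were taken from GENCODE release M21 (GRCm38), matched on Entrez identifiers for the 8 genes.

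Expected counts were rounded to whole numbers and scaled by TMM (factors 0.957 to 1.02), and genes with a mean log2 CPM above 0 were kept. siQk was compared with siNC in all 6 libraries by edgeR 4.0.16 (glmQLFit, glmQLFTest) in R 4.3.3 with no other term. Standard errors and 95% intervals were taken from the pooled spread within groups of TMM-scaled log2 CPM (prior count 2). Exact permutation tests used SciPy 1.17.1 in Python 3.11.15. The p-values measure the spread between these libraries. The scripts were tested on simulated data.

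The members, lists and tests were chosen with earlier results of these data known. Genes named are the members, Qk, list genes called or at an unadjusted p under 0.05, the 2 genes of each list with the smallest p and the 2 with the highest mean RPKM, and the 2 genes most like each member. Marker genes of cell types are named besides, and some genes under this rule are not reported here. Alternatives were DESeq2 size factors, total counts, upper quartile scaling, no filter, filterByExpr at a minimum count of 10, the edgeR exact test, DESeq2 1.42.0, limma-trend (limma 3.58.1), a replicate block and leaving out each library. The siNC and siQk libraries share replicate numbers in their titles, and the labels do not say whether a number marks a shared culture. They were therefore used as a block in an alternative only.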

Additional observations from a re-analysis of the deposited data

How the results depend on the processing

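None of the 8 ALS genes was called under any of the 15 alternatives, and the median of their log2 fold changes stayed between -0.02 and 0.06. Of 120 refits of single members, 117 kept the direction. The 3 that reversed were among those leaving out a library, which gave -0.131 to 0.047 for Vcp and -0.179 to 0.007 for Tbk1, and the cause was not tested. Of 270 refits of 18 other named genes, 2 reversed, within ranges of -0.074 to 0.265 for Gle1 and -0.050 to 0.503 for 1810043G02Rik. Isl1, a motor neuron marker, passed the threshold with DESeq2 alone (log2 fold change 0.81, adjusted p = 0.0328). Over all genes, 1 was called, against 5 by the edgeR exact test, 19 by DESeq2 and 0 to 1 when each library was left out. At an unadjusted p under 0.05 the edgeR fit without siNC replicate 1, which called 0 genes, held 538. Qk stayed between -3.19 and -2.67 when each library was left out, and lost its call without siNC replicate 1 (-3.09, adjusted p = 0.125). Correlations of same-numbered libraries' deviations from their group means were 0.213, 0.018 and -0.17, and that of siNC replicate 3 with siQk replicate 2 was 0.197. Deviations from a group's own mean are tied to each other. These correlations therefore cannot show whether a number marks a shared culture. The fit with the replicate block called 1 gene and 0 members, as did the fit without it, with 448 genes in place of 366 at an unadjusted p under 0.05. With 3 libraries per group the 95% intervals of the 8 genes reach from 50.04% (Optn) to 172.7% (Nek1) of the siNC level.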
